A study of Mus musculus with 16 samples.

Results

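The cytochrome P450 genes of families 1 to 3, leaving out the Cyp2b subfamily, were described in mouse liver. They were the protein-coding rows of the gene table whose symbol is Cyp followed by the family number 1, 2 or 3, a subfamily letter and a gene number, and 49 of the 23258 rows met this rule. The liver RNA came from C57BL/6 mice and fell into 4 groups by genotype and diet. The 5 high-fat knockout libraries came from mice with a liver-specific knockout of the microRNA miR-33 on a high-fat diet, and the 4 high-fat wild-type libraries from wild-type mice on that diet. The 4 chow knockout libraries and the 3 chow wild-type libraries came from the same 2 genotypes on chow. The name of the deposited table carries the words Alb-Cre, which stand for a Cre recombinase under the albumin promoter that is active in hepatocytes, and the labels do not say which groups carry it. The labels give no age, sex or batch, no duration or composition of the diets, and no statement that each library is a separate animal, so that p-values here measure the spread between these libraries. The sample titles of the chow libraries and those of the high-fat libraries form separate ranges of numbers. What these numbers stand for is not stated, and diet cannot be told apart from anything else that differed between the ranges. On chow, the numbers of the knockout libraries also all precede those of the wild-type libraries. miR-33 itself was not analysed here, and no value checks its deletion.

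P450 enzymes of these families sit in the endoplasmic reticulum, take electrons from the reductase Por and add oxygen to drugs, pollutants, steroids and fatty acids. Hepatocytes are their main site, and several are confined to the cells around the central vein or the portal tract. Receptors that bind foreign compounds, such as the aryl hydrocarbon receptor (AhR), CAR and PXR, induce many of them. In the mouse liver the pattern of growth hormone release makes some of them predominant in one sex.

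Library totals were 20993930 to 29469645 estimated counts in high-fat knockout, 16149911 to 25823475 in high-fat wild type, 15888436 to 26821573 in chow knockout and 17502937 to 22902669 in chow wild type. Levels are given as CPM, counts scaled to library size, with the library totals adjusted by TMM factors, which correct for differences in RNA composition. The hepatocyte markers that were measured, 7 of the 8 listed, summed to 67228 to 85857 CPM in high-fat knockout and 68528 to 84153 CPM in high-fat wild type, against 90177 to 104961 CPM in chow knockout and 92280 to 97110 CPM in chow wild type. Alb alone made up most of these sums. Its mean was 55973 CPM in high-fat knockout and 57063 CPM in high-fat wild type, against 66920 CPM in chow knockout and 62309 CPM in chow wild type. Transcripts of the Y-linked genes Ddx3y, Uty, Kdm5d and Eif2s3y were present in all 16 libraries (Ddx3y at 44.12 to 81.67 CPM), and Xist lay at 0 to 0.7066 CPM. High-fat knockout 1 and chow wild type 3 had stood apart in earlier work on these data. Among the 45 P450 genes tested below, high-fat knockout 1 was the highest of its group for 16 and the lowest for 17. By Dixon's criterion for outlying values it lay far from its group for 1 named gene, Cyp2c54. High-fat wild type 1 was the highest of its group for 24 of the 45. Values without high-fat knockout 1 are given beside the results they touch.

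The 49 genes fall into 14 subfamilies. The Cyp2c genes, 13 in number, lie on chromosome 19, the 9 Cyp2d genes on chromosome 15, the 9 Cyp3a genes on chromosome 5, and the 4 Cyp2a genes on chromosome 7. The 4 Cyp2j genes lie on chromosome 4, the 2 Cyp1a genes on chromosome 9 and Cyp1b1 on chromosome 17. Cyp2u1 lies on chromosome 3, and the single genes Cyp2e1, Cyp2f2, Cyp2g1, Cyp2r1, Cyp2s1 and Cyp2t4 lie on chromosome 7. The filter on low counts left 45 of the 49. Cyp2d34, Cyp2j8, Cyp2t4 and Cyp3a41b did not pass it, at means of 0.2573, 0.149, 0.06538 and 0.1203 CPM over the 16 libraries. Cyp2d37-ps is listed as protein-coding in the table and as a pseudogene in the GENCODE M21 annotation.

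Per kilobase of annotated exon, Cyp2e1, which oxidises ethanol, acetone and paracetamol, had by far the highest mean level, 3365 CPM per kb over the 16 libraries. Cyp2d26 followed at 500.6 CPM per kb, then Cyp2f2, a periportal enzyme that activates naphthalene, at 353.4, Cyp2d10 at 342.1 and Cyp3a11, the main mouse counterpart of human drug-metabolising CYP3A enzymes, at 340.3 CPM per kb. Levels then went down through Cyp2d9 at 286.3, Cyp2j5 at 237.1, Cyp2a5 at 215.4, Cyp3a25 at 177.6 and Cyp2c29 at 131.4 CPM per kb, to 0.03962 CPM per kb for Cyp2t4. Of the 12 highest genes per kilobase, 11 were also among the 12 highest in CPM without length scaling.

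Added over the 49 genes, the level was 10709 to 14557 CPM in high-fat knockout and 10183 to 14295 CPM in high-fat wild type, against 20074 to 23798 CPM in chow knockout and 20576 to 22313 CPM in chow wild type. No high-fat library reached any chow library. Cyp2e1 alone gave 28.86% to 39.55% of this sum in high-fat knockout and 30.21% to 41.85% in high-fat wild type, against 45.29% to 51.04% in chow knockout and 47.07% to 50.26% in chow wild type. Without Cyp2e1 the sum was 7434 to 9058 CPM in high-fat knockout and 6699 to 8312 CPM in high-fat wild type, against 9860 to 13019 CPM in chow knockout and 10277 to 11098 CPM in chow wild type. With plain library totals in place of scaled ones, the full sums were 11257 to 15976 CPM in high-fat knockout and 11821 to 15422 CPM in high-fat wild type, against 17485 to 21164 CPM in chow knockout and 17585 to 20724 CPM in chow wild type. In whole liver, fewer hepatocytes and less of these transcripts per hepatocyte cannot be told apart.

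**Figure D1:**
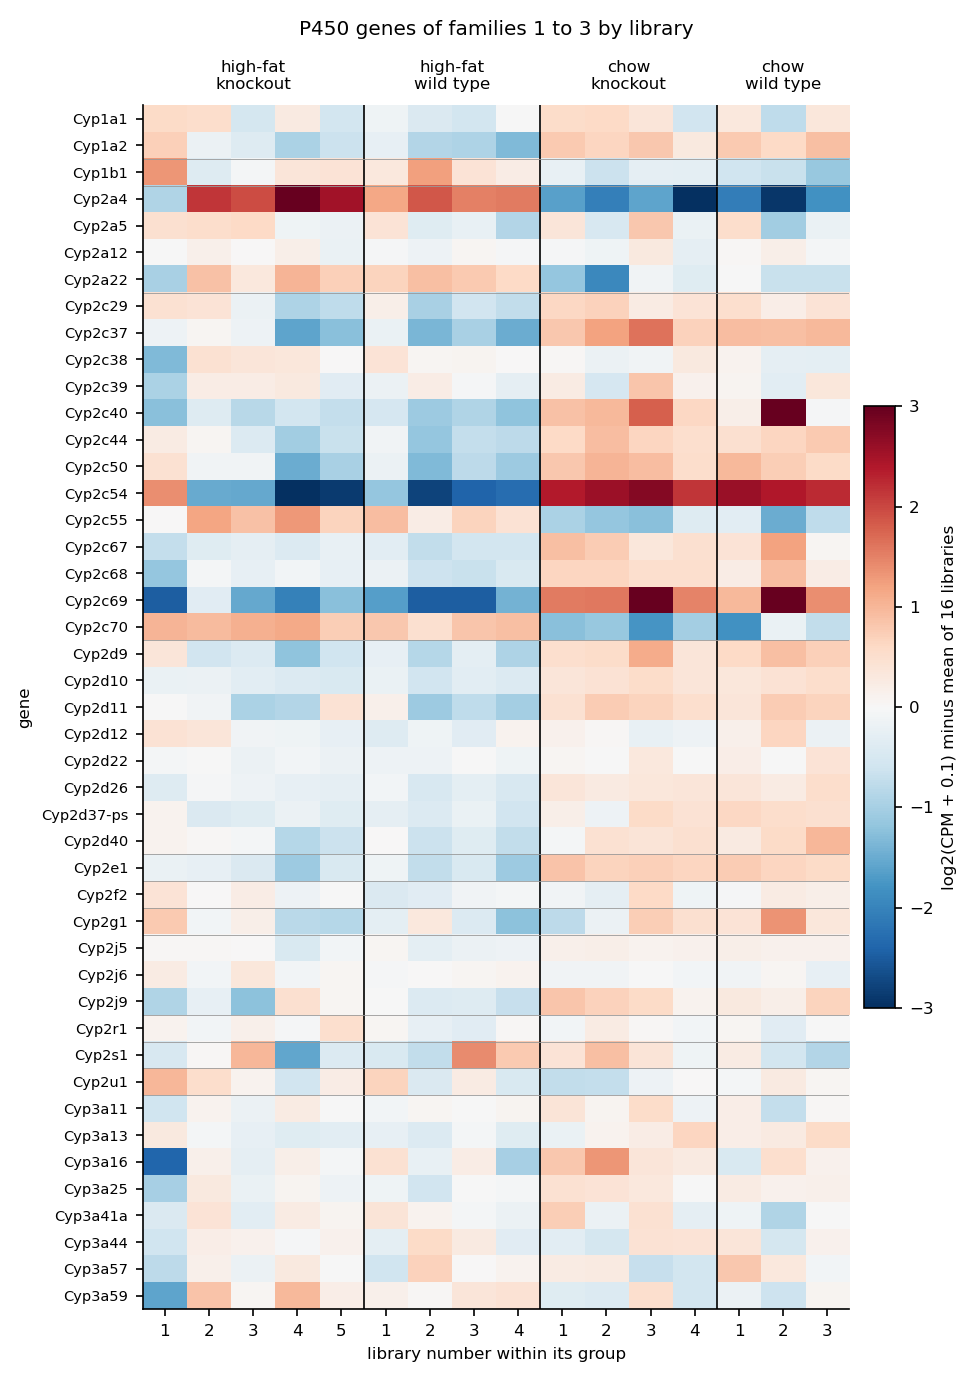
Each row is one of the 45 tested P450 genes and each column one of the 16 libraries, in the order high-fat knockout, high-fat wild type, chow knockout, chow wild type. Colour gives log2(CPM + 0.1) minus the mean of the gene over the 16 libraries, so that a pale cell is near that mean. Cyp2e1 and most Cyp2d genes are lower in the high-fat columns, and Cyp2a4, Cyp2c55 and Cyp2c70 are higher there. Also lower there are Cyp2c37, Cyp2c40, Cyp2c44, Cyp2c50, Cyp2c54, Cyp2c67, Cyp2c68 and Cyp2c69.

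On the high-fat diet, in both genotypes, the most abundant P450 transcript Cyp2e1 fell, most of the Cyp2c and Cyp2d genes fell with it, and a small set (Cyp2a4, Cyp2c55 and Cyp2c70) rose. In knockout, 4 of the 45 tested genes rose and 16 fell by edgeR's quasi-likelihood test with Benjamini-Hochberg adjustment over all 16830 tested genes (threshold 0.05), where 17.4% of all genes tested rose and 16.2% fell. In wild type, 4 rose and 18 fell, where 15.2% of all genes rose and 14.2% fell. As shares of the 45, the falls were 35.6% in knockout and 40% in wild type. The median log2 fold change of the 45 was -0.303 in knockout, against -0.007 over all genes, and -0.349 in wild type, against -0.022 over all genes. The fitted change lay below 0 for 30 of the 45 in knockout, where 50.7% of all genes did, and for 33 in wild type, where 52% of all genes did. Knockout libraries did not overlap between diets for 3 genes that were higher and 15 that were lower on the high-fat diet, where the shares over all genes were 13.5% and 13%. Wild-type libraries did not overlap for 5 higher and 24 lower genes, where the shares over all genes were 18.3% and 17.7%.

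The 2 genotypes share no library in these diet comparisons. Cyp2a4, Cyp2c55 and Cyp2c70 rose in both, which is 75% of the genes that rose in each genotype. A further 15 genes fell in both, which is 93.75% of those that fell in knockout and 83.33% of those that fell in wild type. The matching overlap of calls over all genes was not computed, so these shares have no background beside them. In knockout alone Cyp2a22 passed as higher and Cyp2j9 as lower, and in wild type alone Cyp1b1 passed as higher and Cyp2d22, Cyp2d40 and Cyp3a13 as lower. Of these, Cyp2d40 and Cyp3a13 also passed as lower in knockout when high-fat knockout 1 was left out (edgeR adjusted p = 0.0429 and 0.0204). No gene passed in opposite directions. The fitted change had the same sign in both genotypes for 34 of the 45, and for 80.12% of all genes tested. Among the 24 genes with a mean of at least 50 CPM, 1 rose and 11 fell in knockout and 1 rose and 14 fell in wild type, while among the 21 tested genes below that level 3 rose and 5 fell in knockout and 3 rose and 4 fell in wild type.

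The split between rises and falls depended on how libraries were scaled. TMM factors were 1.019 to 1.177 in high-fat knockout and 1.040 to 1.166 in high-fat wild type, against 0.862 to 0.889 in chow knockout and 0.855 to 0.966 in chow wild type. With plain library totals in their place, the median diet change of all genes moved to 0.3179 in knockout and 0.2397 in wild type. On that scale 9 of the 45 P450 genes rose and 10 fell in knockout, with a median of 0.024, and 6 rose and 16 fell in wild type, with a median of -0.095. Of all 16830 genes tested, 7729 passed on that scale in knockout, 6927 of them higher, and 5457 in wild type, 4748 of them higher. Rises thus far outnumbered falls over all genes. Among the P450 genes falls still outnumbered rises in wild type, while in knockout the counts were nearly equal, 10 falls and 9 rises.

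**Figure D2:**
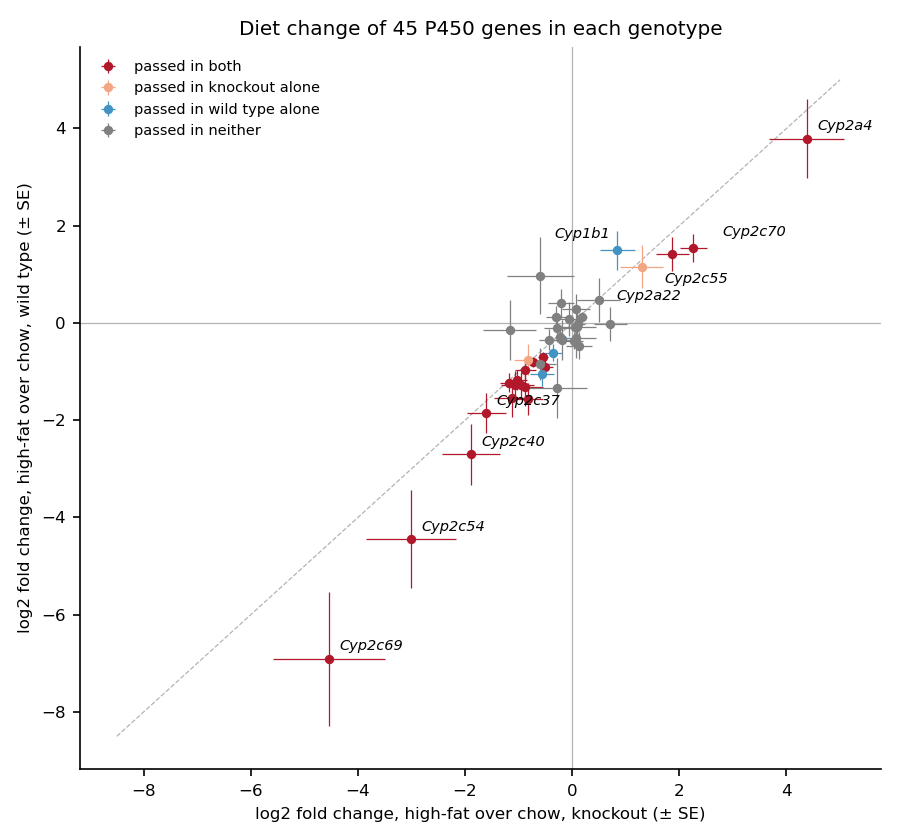
Each point is one of the 45 tested genes, with its log2 fold change of high-fat diet over chow in knockout on the horizontal axis and in wild type on the vertical axis, and bars of 1 standard error. The dashed line marks equal change. The 18 genes that passed in both genotypes run from Cyp2c69 at the lower left to Cyp2a4 at the upper right, and Cyp2c69 lies off the line at -4.54 in knockout and -6.90 in wild type.

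Among genes that are known to be expressed around the central vein, 4 of 7 fell in each genotype and none rose, namely Cyp1a2, Cyp2c37, Cyp2c50 and Cyp2e1. The median log2 fold change of the 7 was -0.828 in knockout and -1.233 in wild type. With library totals Cyp2c37 and Cyp2e1 fell in knockout, and the same 4 as before in wild type. Cyp2e1 stood at 5679, 5499, 4873, 3090 and 4773 CPM in high-fat knockout, against 11789, 10374, 10778 and 10214 CPM in chow knockout. In high-fat wild type it stood at 5982, 3909, 4808 and 3076 CPM, against 11215, 10299 and 9815 CPM in chow wild type. Every high-fat library lay below every chow library, and within the high-fat groups the spread was wider than on chow. The log2 fold change of Cyp2e1 was -1.17 ± 0.17 (SE) in knockout (edgeR adjusted p = 7.2e-05) and -1.23 ± 0.19 in wild type (edgeR adjusted p = 1.9e-04). Cyp1a2, which metabolises caffeine and aromatic amines and is a classical target of AhR, had 342.9, 185.4, 160.9, 109.7 and 134.2 CPM in high-fat knockout, against 365.2, 330.4, 369.7 and 259.4 CPM in chow knockout. It had 177, 113.8, 110.1 and 84.01 CPM in high-fat wild type, against 361.2, 316.5 and 393.4 CPM in chow wild type. High-fat knockout 1 lay among the chow knockout libraries, while the wild-type groups were fully separate. The change was -0.83 ± 0.29 in knockout (edgeR adjusted p = 0.0425) and -1.56 ± 0.33 in wild type (edgeR adjusted p = 0.00335). The knockout call was lost, at edgeR adjusted p of 0.0698 to 0.0936, when any single library other than high-fat knockout 1 or chow knockout 4 was left out. Without high-fat knockout 1 the knockout change was -1.15 (edgeR adjusted p = 0.000783). The remaining pericentral genes did not pass. Cyp2c29 changed by -0.60 in knockout and -0.84 in wild type (edgeR adjusted p = 0.134 and 0.0722). Its wild-type libraries did not overlap between diets. In wild type its change passed without high-fat wild type 1, at -1.14 (edgeR adjusted p = 0.0162). It also passed when the wild-type groups were fitted alone (edgeR adjusted p = 0.0389). Cyp3a11 and Cyp2a5 are described with their subfamilies. The periportal Cyp2f2 had 628.7 to 928.1 CPM in high-fat knockout, against 584.3 to 1069 CPM in chow knockout, and 520.6 to 674.5 CPM in high-fat wild type, against 684.7 to 834.9 CPM in chow wild type. Neither change of Cyp2f2 passed, 0.04 ± 0.16 in knockout and -0.36 ± 0.18 in wild type (edgeR adjusted p = 0.884 and 0.137). Its wild-type libraries did not overlap, however. Fitted on the wild-type groups alone, the change of Cyp2f2 passed, at -0.35 (edgeR adjusted p = 0.0411).

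The other AhR targets had low levels. Cyp1a1 lay between 0.5241 and 1.508 CPM in all 16 libraries, and its changes of -0.19 in knockout and -0.35 in wild type did not pass (edgeR adjusted p = 0.708 and 0.553). Cyp1b1, which acts on oestrogens and polycyclic hydrocarbons, had 4.025, 1.157, 1.487, 2.023 and 2.082 CPM in high-fat knockout, against 1.304, 0.9477, 1.275 and 1.237 CPM in chow knockout. It had 1.949, 3.791, 2.105 and 1.807 CPM in high-fat wild type, against 0.9879, 0.9317 and 0.6509 CPM in chow wild type. Knockout groups overlapped and the change of 0.84 ± 0.33 did not pass (edgeR adjusted p = 0.0574), while wild-type groups did not overlap and the change was 1.49 ± 0.39 (edgeR adjusted p = 0.00829). Without high-fat knockout 1, its highest library, the knockout change was 0.53 (edgeR adjusted p = 0.153). Stellate cell and fibroblast markers moved the same way as Cyp1b1. The 8 listed summed to 367.6 to 471.2 CPM in high-fat knockout and 369.8 to 602.4 CPM in high-fat wild type, against 180.3 to 292.9 CPM in chow knockout and 184.4 to 220.6 CPM in chow wild type, with 6 of 8 higher on the high-fat diet in knockout and 7 of 8 in wild type. Their part in the change of Cyp1b1 was not tested.

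The Cyp2c subfamily changed in both directions. Of its 13 genes, 2 rose and 8 fell in each genotype, with a median log2 fold change of -0.965 in knockout and -1.175 in wild type. With library totals 2 rose and 7 fell in knockout, without Cyp2c50, and 2 rose and 8 fell in wild type. Along chromosome 19 (mm10), Cyp2c55 at chr19:39007019-39042693 came first and rose, and Cyp2c29, Cyp2c38 and Cyp2c39 after it did not pass in either genotype. The next 7 genes, Cyp2c67, Cyp2c68, Cyp2c40, Cyp2c69, Cyp2c37, Cyp2c54 and Cyp2c50, from 39608842 to 40113950, all fell in both genotypes. The adjacent Cyp2c70 at chr19:40153353-40187333 rose in both. Cyp2c44, which lies apart at chr19:44005022-44029208, fell in both.

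**Figure D3:**
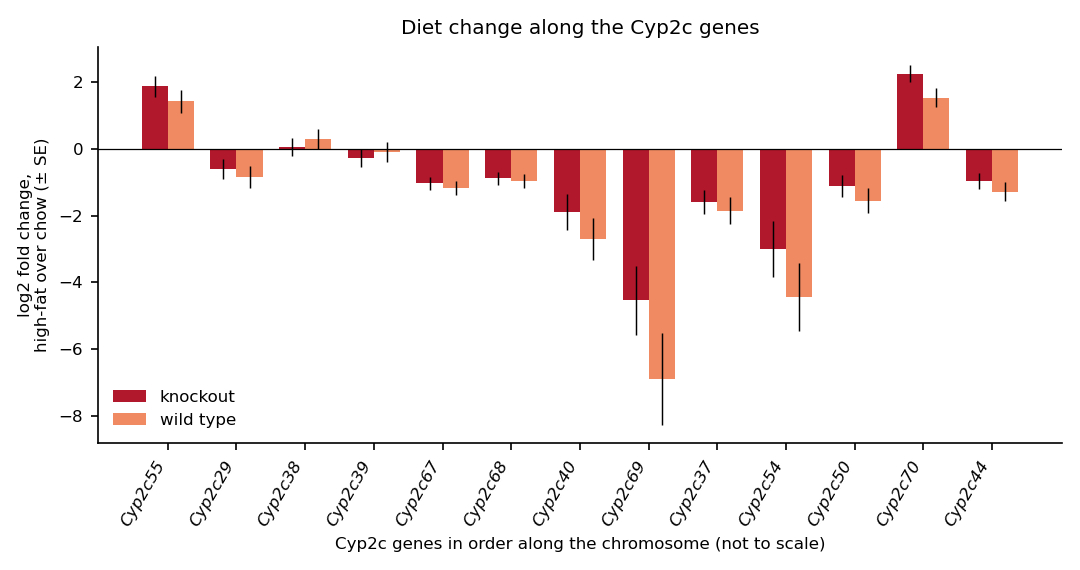
Bars give the log2 fold change of high-fat diet over chow for the 13 Cyp2c genes in their order along chromosome 19, with knockout left of wild type and error bars of 1 standard error. The 7 genes from Cyp2c67 to Cyp2c50 all lie below 0, between Cyp2c55 and Cyp2c70, which lie above 0.

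Cyp2c37, Cyp2c50 and Cyp2c54 encode enzymes that turn arachidonic acid and other fatty acids into epoxides and hydroxy acids. Cyp2c54 had 110, 14.8, 14.42, 2.651 and 5.684 CPM in high-fat knockout, against 217.8, 251.5, 284.1 and 186.5 CPM in chow knockout. It had 18.8, 6.087, 7.832 and 8.608 CPM in high-fat wild type, against 254, 222.1 and 199.8 CPM in chow wild type. All high-fat libraries lay below all chow libraries, with high-fat knockout 1 nearest to them. The change was -3.01 ± 0.84 in knockout (edgeR adjusted p = 0.0159) and -4.44 ± 1.02 in wild type (edgeR adjusted p = 0.00595), and without high-fat knockout 1 the knockout change was -4.62 (edgeR adjusted p = 3.88e-05). Fitted on the knockout groups alone, the knockout change of Cyp2c54 had an edgeR adjusted p of 0.067. Cyp2c37 had 144.4, 166.8, 144, 53.58 and 66.56 CPM in high-fat knockout, against 277.7, 368.7, 495.8 and 256.6 CPM in chow knockout. It had 138.2, 61.84, 80.93 and 56.54 CPM in high-fat wild type, against 305.1, 296.6 and 313.7 CPM in chow wild type. Neither genotype had overlapping diet groups for Cyp2c37, and the changes were -1.60 ± 0.36 and -1.85 ± 0.41 in knockout and wild type (edgeR adjusted p = 0.00433 and 0.00449). Cyp2c50 fell less, by 1.12 ± 0.33 on the log2 scale in knockout and 1.55 ± 0.38 in wild type (edgeR adjusted p = 0.02 and 0.00784), and its knockout call was lost with library totals (edgeR adjusted p = 0.0531). Between 10.4% and 14.1% of the 75-base stretches of the transcripts of these 3 genes also occur in another of the 3, so that reads could have been divided among them. The labels state both 75-base reads and 45 cycles. For 45-base stretches the shares were 20.8% to 34.2%, with other Cyp2c genes among the partners.

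The 4 neighbours Cyp2c67, Cyp2c68, Cyp2c40 and Cyp2c69 share still more sequence, 28.5% to 45.9% of their 75-base stretches and 47.3% to 63.4% of their 45-base stretches. Cyp2c67 had 123.2 to 172.5 CPM in high-fat knockout, against 256.1 to 380.8 CPM in chow knockout, and 121.4 to 162.4 CPM in high-fat wild type, against 212 to 469 CPM in chow wild type. The groups did not overlap, and the changes of Cyp2c67 were -1.03 ± 0.19 in knockout and -1.17 ± 0.21 in wild type (edgeR adjusted p = 6.5e-04 and 7.6e-04). Cyp2c68 changed by -0.88 ± 0.20 and -0.96 ± 0.22 (edgeR adjusted p = 0.00321 and 0.00473). Cyp2c40 had 1.685, 3.164, 2.277, 2.79 and 2.479 CPM in high-fat knockout, against 7.77, 8.228, 14.73 and 6.448 CPM in chow knockout. It had 2.905, 1.913, 2.19 and 1.753 CPM in high-fat wild type, against 4.704, 34.59 and 4.024 CPM in chow wild type. Chow wild type 2 stood far above its group. The change was -1.88 ± 0.54 in knockout (edgeR adjusted p = 0.0167) and -2.70 ± 0.62 in wild type (edgeR adjusted p = 0.00535), but -1.58 in knockout without chow knockout 3 (edgeR adjusted p = 0.0512) and -0.99 in wild type without chow wild type 2 (edgeR adjusted p = 0.0286). Fitted on the wild-type groups alone, its edgeR adjusted p was 0.0569. Cyp2c69, known as female-predominant in mouse liver, was close to absent on the high-fat diet. It had 0, 0.3402, 0.09107, 0.03488 and 0.1322 CPM in high-fat knockout, 18 counts in all, against 1.521, 1.551, 8.073 and 1.457 CPM in chow knockout. It had 0.07644, 0, 0 and 0.1063 CPM in high-fat wild type, 4 counts in all, against 0.9879, 14.5 and 1.361 CPM in chow wild type. A count of 0 allows up to 3 counts in a library, which is 0.09107 to 0.1404 CPM in high-fat knockout and 0.1043 to 0.1594 CPM in high-fat wild type, for counting error only. The fitted change of Cyp2c69 was -4.54 ± 1.05 in knockout and -6.90 ± 1.38 in wild type (edgeR adjusted p = 0.00464 and 0.00213). In knockout it was -5.33 without high-fat knockout 2 and -3.54 without chow knockout 3. In wild type, leaving out library 4 of the high-fat group gave -7.50 and leaving out library 2 of the chow group gave -4.65. Chow wild type 2 and chow knockout 3 were thus the highest chow libraries for both Cyp2c40 and Cyp2c69.

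The promoters of Cyp2c40 and Cyp2c69 are shown because these neighbours moved together in the libraries and their transcripts are so alike. The 300-base windows span the transcription start in RefSeq (GRCm38.p6, minus strand, 5′ to 3′), at chr19:39812765-39813064 and chr19:39886720-39887019. Of 270 aligned bases 267 were the same, an identity of 98.9%. Capitals mark the 3 bases that differ and the ends that have no partner in the other window.
Cyp2c40: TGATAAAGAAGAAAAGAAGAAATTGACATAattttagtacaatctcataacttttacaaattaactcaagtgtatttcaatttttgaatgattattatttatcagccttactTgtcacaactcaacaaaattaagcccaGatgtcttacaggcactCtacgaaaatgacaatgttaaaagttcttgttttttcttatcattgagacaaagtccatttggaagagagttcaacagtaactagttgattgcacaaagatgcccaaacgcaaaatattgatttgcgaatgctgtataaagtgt
Cyp2c69: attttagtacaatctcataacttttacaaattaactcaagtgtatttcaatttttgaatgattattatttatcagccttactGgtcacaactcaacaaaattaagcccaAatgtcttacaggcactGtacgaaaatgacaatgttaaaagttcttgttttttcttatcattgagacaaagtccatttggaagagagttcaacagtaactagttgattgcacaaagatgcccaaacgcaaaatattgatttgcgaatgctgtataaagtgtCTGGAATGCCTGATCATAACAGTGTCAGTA
Both windows held AGTTCA, a half-site of the elements that PXR and CAR bind, and TTGCNNAA, a C/EBP motif. Each motif was searched on both strands by itself, and matches of different motifs were allowed to overlap. Of the 49 genes, 41 had a RefSeq promoter, with 43 promoters in all. AGTTCA occurred in 7 of the 43 (16.3%), against 14% of 32851 promoters of the same length, and TTGCNNAA in 10 of the 43 (23.3%), against 10.8%. TTCNNNGAA, which STAT5 binds, occurred in 0 of the 43, against 8.3% of all. GCGTG, the core of the AhR element, occurred in 5 of the 43 (11.6%), against 32.4% of all. These were the promoters of Cyp1a1, Cyp1b1, Cyp2c68, Cyp2j9 and Cyp2r1, while the promoter of the AhR target Cyp1a2 held none.

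Cyp2c44, which makes epoxides from arachidonic acid, had 235, 205.4, 147.2, 95.26 and 124.8 CPM in high-fat knockout, against 299.5, 372.2, 308.4 and 280.4 CPM in chow knockout. It had 183.9, 88.62, 120.1 and 113.8 CPM in high-fat wild type, against 273.8, 306.4 and 342.1 CPM in chow wild type. Diet groups did not overlap, and the changes were -0.96 ± 0.24 in knockout and -1.28 ± 0.28 in wild type (edgeR adjusted p = 0.00765 and 0.00339). None of its 75-base stretches occurs in a transcript of another gene, and the same holds for Cyp2c55 and Cyp2c70. At 45 bases 1.0% of the stretches of Cyp2c55 are shared.

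Cyp2c70 and Cyp2c55 went the other way. Cyp2c70, which makes the muricholic bile acids of the mouse from chenodeoxycholic acid, had 213, 202.7, 219.5, 228.2 and 175.7 CPM in high-fat knockout, against 43.63, 47.43, 30.52 and 51.58 CPM in chow knockout. It had 182.7, 146.3, 187.6 and 194.3 CPM in high-fat wild type, against 29.45, 91.66 and 62.49 CPM in chow wild type. All high-fat libraries were above all chow libraries. The change was 2.26 ± 0.26 in knockout (edgeR adjusted p = 1.8e-05) and 1.54 ± 0.28 in wild type (edgeR adjusted p = 0.00112). Cyp2c55, inducible through CAR and PXR in mice, had 1.685, 3.912, 3.127, 4.255 and 2.71 CPM in high-fat knockout, against 0.815, 0.6892, 0.6374 and 1.237 CPM in chow knockout. It had 3.248, 1.948, 2.695 and 2.285 CPM in high-fat wild type, against 1.317, 0.5241 and 0.9468 CPM in chow wild type. These groups did not overlap either, and Cyp2c55 rose by 1.87 ± 0.31 on the log2 scale in knockout and 1.43 ± 0.35 in wild type (edgeR adjusted p = 1.6e-04 and 0.00504). Of the 5 genes listed as inducible through CAR or PXR, Cyp2c55 rose and Cyp2c37 fell in both genotypes, Cyp3a13 fell in wild type, and Cyp2c29 and Cyp3a11 did not pass.

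In the Cyp2a subfamily, 2 of 4 genes rose in knockout and 1 of 4 in wild type, and none fell. Cyp2a4, a steroid hydroxylase that is female-predominant in mouse liver, had 4.961, 41.95, 37, 95.29 and 54.56 CPM in high-fat knockout, against 2.988, 2.197, 3.045 and 1.016 CPM in chow knockout. It had 20.94, 34.29, 26.78 and 28 CPM in high-fat wild type, against 2.164, 1.165 and 2.604 CPM in chow wild type. Every high-fat library was above every chow library, and high-fat knockout 1 was nearest to chow. The change was 4.38 ± 0.70 in knockout (20.8-fold, edgeR adjusted p = 4.4e-04) and 3.79 ± 0.81 in wild type (13.8-fold, edgeR adjusted p = 0.00366). Without high-fat knockout 1 the knockout change was 4.69 (edgeR adjusted p = 2.02e-06). By limma voom the wild-type change had an adjusted p of 0.0938. Its near-identical partner Cyp2a5, a pericentral coumarin hydroxylase, was far more abundant and did not move with it. Cyp2a5 had 585.8, 602.6, 637.7, 381.3 and 373.2 CPM in high-fat knockout, against 539.7, 297.7, 730.3 and 364 CPM in chow knockout. It had 553.7, 327.2, 360.5 and 227.3 CPM in high-fat wild type, against 599.8, 202.2 and 361.8 CPM in chow wild type. The groups overlapped widely, and the changes of 0.10 ± 0.35 and -0.08 ± 0.40 did not pass (edgeR adjusted p = 0.862 and 0.904). Of the 75-base stretches of Cyp2a4, 22.1% occur in Cyp2a5 or a Cyp2a pseudogene, and 22.3% of those of Cyp2a5 are shared likewise. For 45-base stretches these shares are 42.5% and 41.3%. The division of reads between them is thus uncertain.

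The promoters of Cyp2a4 and Cyp2a5 are shown because transcripts so alike differed in level and in their change with diet. Both windows lie on the plus strand (RefSeq, GRCm38.p6), at chr7:26306942-26307241 and chr7:26835089-26835388. Of 299 aligned bases 294 were the same, an identity of 98.3%. Capitals mark the 5 bases that differ and, in each window, 1 base at or next to an end that the alignment left without a partner.
Cyp2a4: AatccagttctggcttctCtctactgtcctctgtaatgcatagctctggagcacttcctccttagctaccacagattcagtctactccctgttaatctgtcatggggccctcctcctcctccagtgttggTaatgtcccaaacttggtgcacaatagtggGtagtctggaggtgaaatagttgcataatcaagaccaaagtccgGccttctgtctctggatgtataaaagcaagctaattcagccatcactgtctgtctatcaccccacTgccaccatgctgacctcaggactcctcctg
Cyp2a5: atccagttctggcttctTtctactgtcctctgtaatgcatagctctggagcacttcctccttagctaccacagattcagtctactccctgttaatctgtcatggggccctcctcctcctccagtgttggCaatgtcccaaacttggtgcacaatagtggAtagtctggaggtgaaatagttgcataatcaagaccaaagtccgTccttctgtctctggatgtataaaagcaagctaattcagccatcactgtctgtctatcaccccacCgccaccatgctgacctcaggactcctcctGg
Each window held TTGCNNAA once and none of the other 3 motifs searched.

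Cyp2a22 had 7.348, 27.08, 18.18, 29.51 and 23.93 CPM in high-fat knockout, against 6.412, 3.748, 13.6 and 11.35 CPM in chow knockout. It had 23.39, 27.41, 25.01 and 22 CPM in high-fat wild type, against 14.49, 9.084 and 9.113 CPM in chow wild type. The knockout groups overlapped through high-fat knockout 1 and the wild-type groups were separate. Its change passed in knockout at 1.30 ± 0.40 (edgeR adjusted p = 0.0225) and not in wild type at 1.16 ± 0.45 (edgeR adjusted p = 0.0671), where it passed with library totals. Without high-fat knockout 1 the knockout change was 1.53 (edgeR adjusted p = 0.00169). The knockout call was lost without chow knockout 1 or chow knockout 2 (edgeR adjusted p = 0.0679 and 0.0556) and when the knockout groups were fitted alone (edgeR adjusted p = 0.0781). Cyp2a12 lay between 357.6 and 527.1 CPM in the 16 libraries and did not pass (0.04 ± 0.10 in knockout and -0.09 ± 0.12 in wild type), but rose in knockout with library totals, by 0.36 (edgeR adjusted p = 0.00742). Of the 5 tested genes listed as female-predominant, Cyp2a4 rose and Cyp2c69 fell in both genotypes, and Cyp3a16, Cyp3a41a and Cyp3a44 did not pass.

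In the crossing Cyp2b subfamily, Cyp2b9 and Cyp2b13 rose in both genotypes and Cyp2b10 did not pass in either. Cyp2b9, also female-predominant, had 185.6 ± 72.24 CPM in high-fat knockout (SD, n = 5) and 194.2 ± 29.43 CPM in high-fat wild type (n = 4), against 12.95 ± 9.307 CPM in chow knockout (n = 4) and 9.399 ± 6.07 CPM in chow wild type (n = 3).

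**Figure D4:**
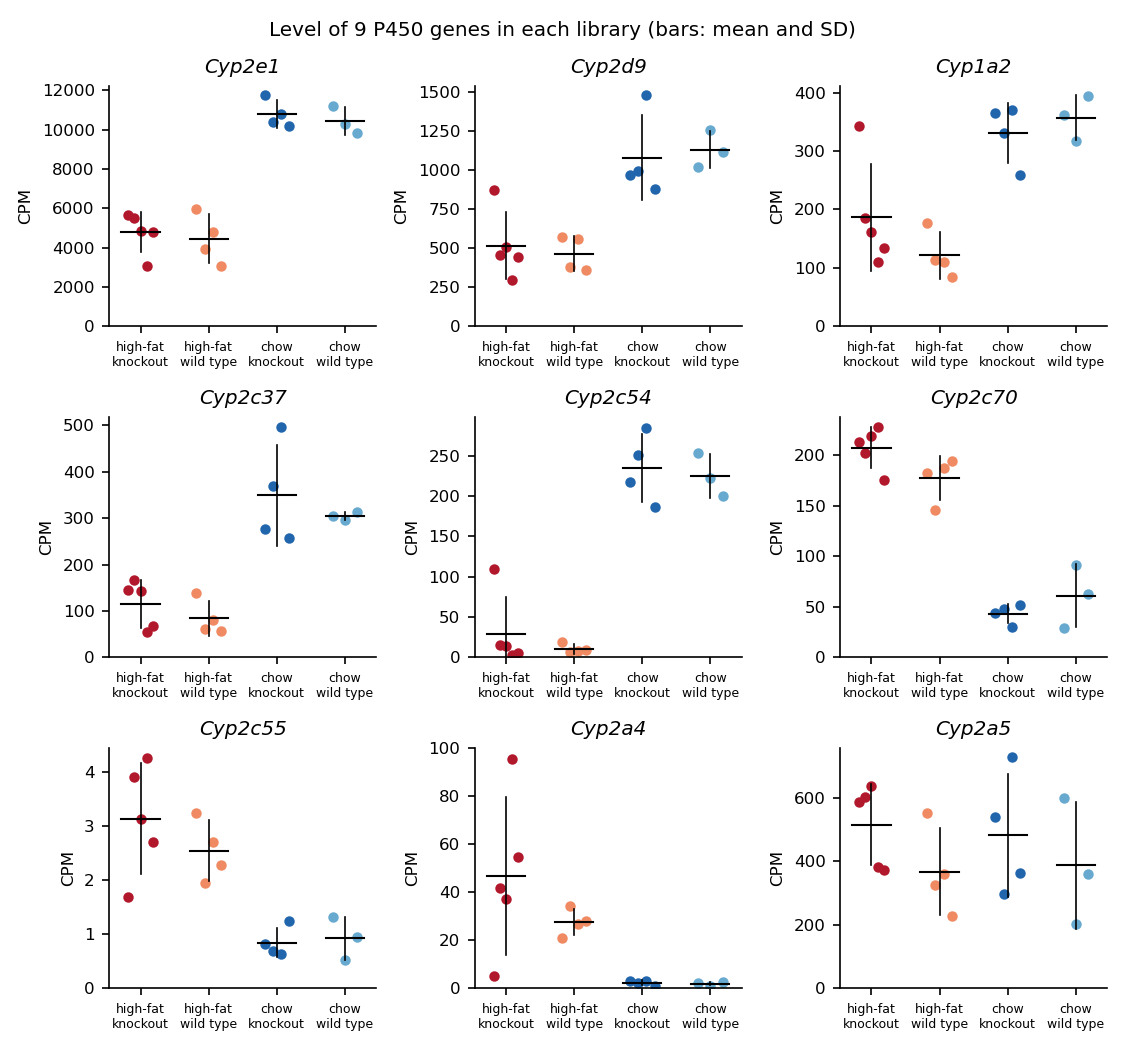
CPM of 9 named P450 genes in each of the 16 libraries, with groups from left to right high-fat knockout, high-fat wild type, chow knockout and chow wild type. Points are libraries and bars give the mean and SD. The high-fat libraries of Cyp2e1 lie at 3076 to 5982 CPM, below all chow libraries, those of Cyp2c70 lie at 146.3 to 228.2 CPM, above all chow libraries, and those of Cyp2a5 overlap with chow.

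In the Cyp2d subfamily no gene rose, and 5 of 8 tested genes fell in knockout and 7 of 8 in wild type. With library totals Cyp2d10 and Cyp2d9 fell in knockout and 6 of 8 fell in wild type, without Cyp2d22. Cyp2d10 had 476.6, 478.2, 435.8, 411.4 and 398.5 CPM in high-fat knockout, against 698.8, 733.5, 794.8 and 699.4 CPM in chow knockout. It had 476.2, 363.6, 436.2 and 411.5 CPM in high-fat wild type, against 689.8, 731.3 and 786.2 CPM in chow wild type. Diet groups were well apart, and the change was -0.73 ± 0.08 in knockout and -0.80 ± 0.10 in wild type (edgeR adjusted p = 5.5e-06 and 1.2e-05). Cyp2d9, a male-predominant testosterone hydroxylase, had 875.9, 456.3, 509.2, 294.7 and 446.4 CPM in high-fat knockout, against 968.6, 996.5, 1482 and 878.4 CPM in chow knockout. It had 570.2, 378.2, 557.4 and 359.6 CPM in high-fat wild type, against 1021, 1262 and 1119 CPM in chow wild type. High-fat knockout 1 almost reached the lowest chow library, and the other high-fat libraries lay well below chow. The change was -1.07 ± 0.26 in knockout and -1.28 ± 0.30 in wild type (edgeR adjusted p = 0.00628 and 0.00503), and without high-fat knockout 1 it was -1.32 (edgeR adjusted p = 0.000209) in knockout. Cyp2d26 fell by 0.55 ± 0.09 on the log2 scale in knockout and 0.70 ± 0.11 in wild type (edgeR adjusted p = 2.3e-04 and 1.0e-04), and with library totals its knockout change was -0.22 (edgeR adjusted p = 0.107). Cyp2d37-ps fell by 0.51 ± 0.14 in knockout and 0.91 ± 0.16 in wild type (edgeR adjusted p = 0.0105 and 4.4e-04). Cyp2d11, at 0.3478 to 1.514 CPM in all libraries, changed by -0.89 ± 0.33 in knockout (edgeR adjusted p = 0.0476) and by -1.31 ± 0.39 in wild type (edgeR adjusted p = 0.0176). The knockout call for Cyp2d11 was lost when any library but high-fat knockout 5 was left out (edgeR adjusted p 0.0544 to 0.112), when the knockout groups were fitted alone (edgeR adjusted p = 0.0544) and with library totals (edgeR adjusted p = 0.192). Its wild-type call was lost without chow wild type 2 or high-fat wild type 2 (edgeR adjusted p = 0.0617 and 0.0574). Cyp2d40 and Cyp2d22 passed in wild type, at -1.05 ± 0.25 and -0.32 ± 0.10 (edgeR adjusted p = 0.00625 and 0.019), and not in knockout, at -0.56 ± 0.22 and -0.19 ± 0.09 (edgeR adjusted p = 0.0648 and 0.0925). Without high-fat knockout 1 the knockout change of Cyp2d40 passed, at -0.64 (edgeR adjusted p = 0.0429). Without chow wild type 3 or high-fat wild type 2 the call for Cyp2d22 was lost (edgeR adjusted p = 0.142 and 0.0502). Cyp2d12 lay at 0.8026 to 1.747 CPM and did not pass in either genotype. Cyp2d9, Cyp2d10 and Cyp2d11 share 12.9% to 22.3% of their 75-base stretches, and 24.9% to 42.2% of their 45-base stretches, with other genes of the table or the annotation.

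Few Cyp3a genes passed. Of the 8 tested none passed in knockout and Cyp3a13 alone fell in wild type, where its call was lost without chow wild type 3 and with library totals. Without high-fat knockout 1, however, 2 Cyp3a genes passed in knockout. These were Cyp3a13 at -0.45 and Cyp3a59 at 0.75 (edgeR adjusted p = 0.0204 and 0.0354). Cyp3a11 had 1114, 1821, 1493, 2025 and 1680 CPM in high-fat knockout, against 2232, 1789, 2485 and 1523 CPM in chow knockout. It had 1615, 1759, 1677 and 1806 CPM in high-fat wild type, against 1935, 1032 and 1747 CPM in chow wild type. The groups overlapped, and the changes were -0.30 ± 0.19 in knockout and 0.13 ± 0.21 in wild type (edgeR adjusted p = 0.228 and 0.70). Cyp3a13 had 160 to 251.3 CPM in high-fat knockout, against 179.9 to 322.2 CPM in chow knockout, and 154.4 to 199.7 CPM in high-fat wild type, against 237.7 to 306.4 CPM in chow wild type. Its change was -0.35 ± 0.16 in knockout (edgeR adjusted p = 0.093) and -0.62 ± 0.18 in wild type (edgeR adjusted p = 0.0147, and 0.0793 without chow wild type 3). Cyp3a25 changed by -0.43 ± 0.19 and -0.35 ± 0.21 (edgeR adjusted p = 0.0888 and 0.245). Without high-fat knockout 2 the knockout change of Cyp3a25 passed, at -0.56 (edgeR adjusted p = 0.0275). The other 5 tested genes were Cyp3a59, at 7.629 to 45.07 CPM, Cyp3a41a, at 1.572 to 5.108 CPM, and Cyp3a16, Cyp3a44 and Cyp3a57, each under 2 CPM in every library. Cyp3a41a shares 95.3% of its 75-base stretches (99.1% at 45 bases) with Cyp3a41b and other Cyp3a genes, so that its level is uncertain.

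Among the arachidonic acid epoxygenases listed, Cyp2c44 and the Cyp2j genes, Cyp2j9 also fell in knockout. Cyp2j9 had 4.446, 7.11, 3.552, 11.89 and 8.791 CPM in high-fat knockout, against 15.16, 13.78, 12.53 and 9.098 CPM in chow knockout. The groups overlapped through high-fat knockout 4. The change was -0.82 ± 0.28 (edgeR adjusted p = 0.0328), and it was lost in 6 of the 9 fits that left out a single library (edgeR adjusted p 0.055 to 0.0939), those without high-fat knockout 1, 2 or 3 or chow knockout 1, 2 or 3. In wild type it was -0.76 ± 0.32 (edgeR adjusted p = 0.0889). Cyp2j5, the most abundant of the subfamily, had 402.9 to 567.2 CPM in high-fat knockout, against 591.9 to 628.2 CPM in chow knockout, and 448.5 to 578.6 CPM in high-fat wild type, against 603.9 to 625 CPM in chow wild type. The Cyp2j5 groups did not overlap, yet its changes of -0.22 ± 0.09 and -0.28 ± 0.11 missed the threshold (edgeR adjusted p = 0.0739 and 0.0546). Without high-fat wild type 1 the wild-type change of Cyp2j5 passed, at -0.35 (edgeR adjusted p = 0.02). Cyp2j6 did not pass (0.18 ± 0.09 and 0.13 ± 0.10) but rose in both genotypes with library totals. Cyp2r1, which hydroxylates vitamin D, lay at 7.622 to 13.65 CPM and did not pass at 0.11 ± 0.14 in knockout and -0.03 ± 0.16 in wild type. Cyp2u1 at 17.71 to 59.53 CPM did not pass either. With library totals, Cyp2r1, Cyp2u1 and Cyp1b1 rose in knockout. Cyp2g1 and Cyp2s1, each under 1 CPM in every library, did not pass in either genotype.

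The enzymes and receptors that P450 genes depend on were read from lists of 14 and 26 genes. In the list of the reductase, cytochrome b5 and haem supply, 3 of 14 rose and 5 fell in knockout and 3 rose and 4 fell in wild type. Over all genes tested, 17.4% rose and 16.2% fell in knockout, and 15.2% rose and 14.2% fell in wild type. Por, the electron donor of all these enzymes, had 246.5 ± 24.37 CPM in high-fat knockout (SD, n = 5) and 233.9 ± 50.27 CPM in high-fat wild type (n = 4), against 433.8 ± 61.03 CPM in chow knockout (n = 4) and 394.4 ± 65.44 CPM in chow wild type (n = 3). It fell by 0.82 ± 0.13 on the log2 scale in knockout and 0.75 ± 0.15 in wild type (edgeR adjusted p = 1.8e-04 and 0.00129). Cpox, an enzyme of haem synthesis, fell by 0.89 ± 0.09 and 0.90 ± 0.10 (edgeR adjusted p = 1.8e-06 and 7.8e-06). Alas1, the rate-limiting enzyme of haem synthesis in liver, fell by 1.09 ± 0.26 in knockout (edgeR adjusted p = 0.00625) and changed by -0.68 ± 0.30 in wild type (edgeR adjusted p = 0.105). Cyb5a and Urod also fell in both genotypes. The 3 that rose in both were Cyb5b, Cyb5r3 and Hmox1, which degrades haem, by 0.84 ± 0.13 for Hmox1 in knockout and 1.64 ± 0.16 in wild type (edgeR adjusted p = 1.1e-04 and 1.3e-06). With library totals the list gave 6 rises and 3 falls in knockout and 3 rises and 2 falls in wild type, and Por and Cpox fell in both genotypes on that scale too. On that scale 6927 of all 16830 genes tested rose in knockout and 4748 in wild type.

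Among the 25 tested receptors and transcription factors, 5 rose and 9 fell in knockout and 4 rose and 8 fell in wild type. The rises lay near the shares over all genes, 17.4% in knockout and 15.2% in wild type. The falls lay above theirs, 16.2% and 14.2%. Hnf4a, a factor that hepatocyte genes including many P450 genes depend on, had 293 ± 23.95 CPM in high-fat knockout and 290.8 ± 30.63 CPM in high-fat wild type, against 577.9 ± 71.17 CPM in chow knockout and 536.3 ± 36.96 CPM in chow wild type (SD, n as above). Its change was -0.98 ± 0.09 in knockout and -0.88 ± 0.11 in wild type (edgeR adjusted p = 8.1e-07 and 1.2e-05). Nr1i3, which encodes CAR, had 133.7 ± 20.55 CPM in high-fat knockout and 122.6 ± 22.33 CPM in high-fat wild type, against 284.6 ± 28.22 CPM in chow knockout and 258.3 ± 38.47 CPM in chow wild type, a change of -1.09 ± 0.13 and -1.08 ± 0.14 (edgeR adjusted p = 6.8e-06 and 3.7e-05). Rxra, the partner of CAR and PXR, fell by 0.59 ± 0.08 and 0.56 ± 0.09 (edgeR adjusted p = 2.1e-05 and 1.8e-04). Nr1i2, which encodes PXR, and Ahr passed in knockout, at -0.25 ± 0.09 and -0.38 ± 0.09 (edgeR adjusted p = 0.0339 and 0.00367), and not in wild type, at -0.18 ± 0.10 and -0.28 ± 0.10 (edgeR adjusted p = 0.204 and 0.0541). Cux2, a female-predominant liver factor, fell in both and had at most 1.237 CPM in any library. Arnt, the partner of AhR, Tiparp, an AhR target, Nfe2l2 and Stat5a rose in both. Cebpa fell in both, Nr0b2 and Tef in wild type and Ncor1 in knockout, and Dbp rose in knockout. With library totals 9 rose and 4 fell in knockout and 6 rose and 3 fell in wild type, with Hnf4a, Nr1i3 and Rxra lower in both genotypes on that scale as well. Over all 16830 genes tested, 6927 rose in knockout and 4748 in wild type with library totals.

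The knockout of miR-33 gave no P450 gene that passed on either diet. Of the 45 tested genes 0 rose and 0 fell on the high-fat diet, on chow, in the mean of both diets and in the difference between the diets, by edgeR's quasi-likelihood test, and 0 had an unadjusted p under 0.05 in any of the 4 comparisons. DESeq2 and limma voom also gave 0 of these genes. Over all genes edgeR called 0.00594% on the high-fat diet, 0.00594% on chow, 0.0178% in the mean and 0% in the difference, and 3.81%, 5.95%, 3.49% and 6.6% had an unadjusted p under 0.05. For none of the 45 did knockout and wild-type libraries of a diet separate, where 0.594% and 0.642% of all genes did on the high-fat diet (higher and lower) and 3.07% and 2.55% on chow. A p above the threshold does not show that the genotypes are alike. For Cyp2e1 the knockout change was 0.11 ± 0.17 on the high-fat diet and 0.05 ± 0.20 on chow.

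**Figure D5:**
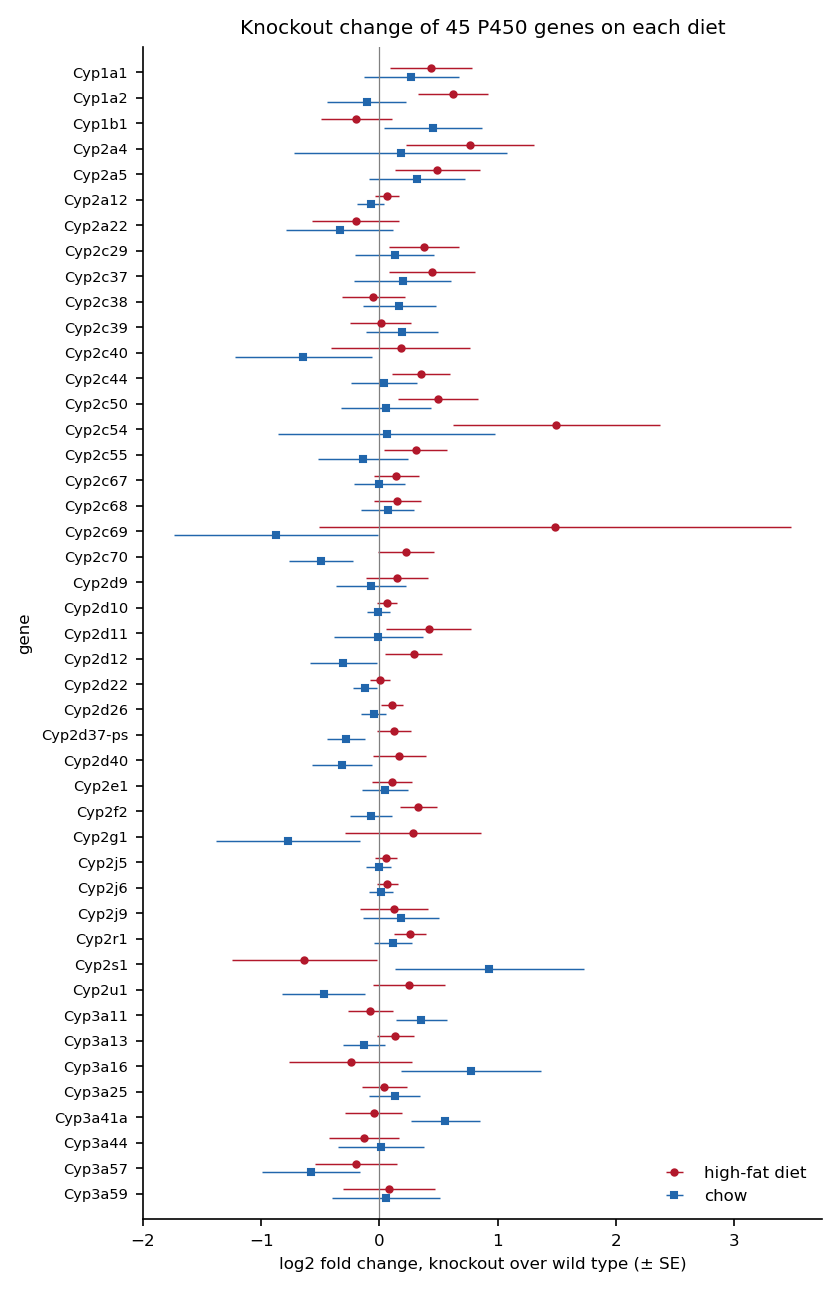
Log2 fold change of knockout over wild type for the 45 tested P450 genes, on the high-fat diet and on chow, with bars of 1 standard error. No gene passed in either comparison, and on the high-fat diet 36 of the 45 points lie above 0.

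The fitted knockout change was above 0 for 36 of the 45 on the high-fat diet, with a median of 0.143, and for 51.1% of all genes, with a median of 0.003. The 36 included 12 of 13 Cyp2c and 8 of 8 Cyp2d genes but 3 of 8 Cyp3a genes. On chow 23 of the 45 lay above 0 with a median of 0.013, where 50.1% of all genes did, and 8 of 13 Cyp2c, 0 of 8 Cyp2d and 6 of 8 Cyp3a genes were among them. The genes share libraries and sequence, so they are not independent, and when single libraries were left out the high-fat median ranged from 0.091 to 0.239. The smallest p on the high-fat diet belonged to Cyp2f2, at 0.33 ± 0.16 (edgeR adjusted p = 1). Its libraries had 928.1, 703.5, 817.3, 628.7 and 699.9 CPM in high-fat knockout, against 520.6, 559.2, 652.1 and 674.5 CPM in high-fat wild type, and they overlapped. Cyp1a2 came next at 0.62 ± 0.30, then Cyp2r1 at 0.26 ± 0.14, Cyp2c54 at 1.49 ± 0.88 and Cyp2c50 at 0.49 ± 0.34, all with an edgeR adjusted p of 1. For Cyp2c54 the sign rested on high-fat knockout 1, without which the change was -0.14. On chow the 5 smallest p belonged to Cyp3a41a at 0.56 ± 0.29, Cyp2c70 at -0.49 ± 0.27, Cyp2d37-ps at -0.28 ± 0.16, Cyp3a11 at 0.35 ± 0.22 and Cyp3a57 at -0.58 ± 0.42, with edgeR adjusted p of 0.854 for the first. In the mean of both diets 33 of the 45 lay above 0, where 51.3% of all genes did, and the smallest p belonged to Cyp2r1 at 0.19 ± 0.10, Cyp2a5 at 0.40 ± 0.27, Cyp3a57 at -0.39 ± 0.27, Cyp1a1 at 0.35 ± 0.26 and Cyp3a41a at 0.25 ± 0.19. In the difference between diets 35 of the 45 lay above 0, where 50.7% of all genes did, and the smallest p belonged to Cyp2c70 at 0.72 ± 0.36 (edgeR adjusted p = 0.784), Cyp2d37-ps at 0.40 ± 0.22, Cyp2f2 at 0.40 ± 0.24, Cyp1a2 at 0.73 ± 0.44 and Cyp2d12 at 0.59 ± 0.37. Where a gene passed the diet comparison in one genotype alone, this difference between genotypes did not pass for it.

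Markers of other cell types differed in how they moved with diet. Over all genes tested, 17.4% rose and 16.2% fell in knockout, and 15.2% rose and 14.2% fell in wild type. The 6 cholangiocyte markers summed to 63.18 to 112.8 CPM in high-fat knockout and 86.79 to 223.3 CPM in high-fat wild type, against 18.77 to 28.43 CPM in chow knockout and 21.18 to 40.24 CPM in chow wild type. Of 5 tested, 2 rose in each genotype, Krt19 and Spp1. Spp1 made up most of the sum. Its mean was 77.8 CPM in high-fat knockout and 132.5 CPM in high-fat wild type, against 15.56 CPM in chow knockout and 18.62 CPM in chow wild type. Sox9 averaged 6.144 and 7.46 CPM in the high-fat groups, against 6.089 and 7.533 CPM on chow, knockout first. The 8 Kupffer cell and macrophage markers summed to 129.2 to 274.8 CPM in high-fat knockout and 135.9 to 274 CPM in high-fat wild type, against 133 to 169.5 CPM in chow knockout and 63.88 to 145.1 CPM in chow wild type. In knockout 1 of the 8 rose and 1 fell, and in wild type 4 rose and none fell. The 8 sinusoidal endothelial markers summed to 170.8 to 228.9 CPM in high-fat knockout and 198.8 to 260.1 CPM in high-fat wild type, against 228.5 to 268.8 CPM in chow knockout and 172.6 to 210.8 CPM in chow wild type. In knockout 3 of the 8 fell and none rose, and in wild type 3 rose and none fell. T and NK cell markers summed to at most 4.614 CPM in any library, B and plasma cell markers to 19.7 CPM and neutrophil markers to 11.2 CPM. No gene of these 3 lists passed in knockout, while in wild type 1 of 6 T and NK cell markers and 3 of 3 tested neutrophil markers rose and 0 of 4 tested B and plasma cell markers passed. Of the 7 measured hepatocyte markers, 4 fell in knockout and 5 in wild type, with medians of -0.624 and -0.675 on the log2 scale. Alb, the largest part of their sum, changed by -0.26 ± 0.10 in knockout and -0.13 ± 0.12 in wild type. Neither change passed (edgeR adjusted p = 0.0572 and 0.436). The part of these markers in the P450 changes was not tested.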

How the data were processed

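Liver RNA of 16 libraries was measured by sequencing. Per the labels' protocols, total RNA was depleted of ribosomal RNA, and quality-trimmed reads went through TopHat2 for alignment and Cuffdiff for quantification. Per the submitters' processing notes mm10 was the build. Tool versions and the strand setting of counting were not given in the sources used here. Both 45 cycles and 75-base reads are stated in the labels, and this was not reconciled. The deposited table holds estimated counts per gene, not scaled to depth or length although its name speaks of FPKM: 32.8% to 37.9% of a library's values were exactly whole, and the smallest row total was 10. Read sharing was computed from GENCODE M21 transcripts for stretches of 75 and of 45 bases.

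Counts were rounded. In R 4.3.3, edgeR 4.0.16 was run with TMM, filterByExpr (16830 genes kept) and a robust quasi-likelihood fit of 4 group means to all libraries (12 residual degrees of freedom, two-sided, Benjamini-Hochberg over all genes). Standard errors are the absolute log2 fold change over the square root of F. The fit was tested on simulated counts with known changes. For the knockout it recovered 44.8% of 1.5-fold changes on the high-fat diet and 25.4% on chow. In the difference between the diets it recovered 6.0% of them. Of 2-fold changes it recovered 85.1%, 68.7% and 65.7% in the same order. Members and lists were chosen with earlier results of these data known. Named by rule were the 12 most abundant genes, up to 10 rises and falls per comparison (a mean of 1 CPM or more in the higher group), plus the 5 smallest p where none passed; other genes were named after their values were seen. Of the listed genes, 1 is not reported here. Alternatives included DESeq2 1.42.0, limma 3.58.1 voom, other filters and scalings, and leaving out libraries.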

Additional observations from a re-analysis of the deposited data

Results flagged for a closer look

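In 93 groups of 4 or 5 libraries of the named genes, 5 held a library far from the others by Dixon's criterion, and chance gives about 1 in 20. Cyp2c54 had 110 CPM in high-fat knockout 1, against 2.651 to 14.8 CPM in the other libraries of that group. Cyp2j5 had 402.9 CPM in high-fat knockout 4, against 524.2 to 567.2 CPM. Cyp1b1 had 3.791 CPM in high-fat wild type 2, against 1.807 to 2.105 CPM. Cyp2c69 had 8.073 CPM in chow knockout 3, against 1.457 to 1.551 CPM, and Cyp2f2 had 1069 CPM in the same library, against 584.3 to 650.8 CPM. Chow wild type, with 3 libraries, was not tested.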

How the results depend on the processing

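No paired analysis was possible because the replicate numbers follow accession order and pair nothing. The count of P450 genes that passed kept within 1.5 times its value in 230 of 232 recomputed counts. Most of the 232 belong to the knockout comparisons, where 0 genes passed in every fit, so the figure says little about the diet calls. Both exceptions came from plain library totals, a scaling chosen after seeing the data, under which 9 genes rose and 10 fell with diet in knockout and the median change there was 0.024 and no longer below 0. Leaving out 1 library at a time gave 3 to 5 rises and 12 to 16 falls in knockout, 4 to 4 rises and 16 to 20 falls in wild type, and 0 to 0 in each knockout comparison. Without both high-fat knockout 1 and chow wild type 3, 5 rose and 16 fell in knockout and 4 rose and 16 fell in wild type. DESeq2 gave 6 rises and 15 falls in knockout and 5 and 16 in wild type, and limma voom 4 and 17 in knockout and 3 and 18 in wild type. Direction reversed for 17 values of single genes, none of which had passed. With library totals these were 0.10 for Cyp2j5 and 0.02 for Cyp3a11 in knockout, and 0.17 for Cyp2a12 and 0.15 for Cyp2a5 in wild type. Leaving out single libraries gave -0.03 to 0.17 for Cyp2a12, -0.08 to 0.37 for Cyp2a5 and -0.06 to 0.27 for Cyp2f2 in knockout, and -0.39 to 0.38 for Cyp2a5 and -0.1 to 0.3 for Cyp3a11 in wild type. The knockout change of Cyp2c54 on the high-fat diet ran from -0.14 to 1.96, and without both libraries it was -0.13, while the diet change of Cyp2f2 in knockout was then -0.03. The causes were not tested. Depth limits Cyp2c69 on the high-fat diet, with 18 counts in knockout and 4 in wild type.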
